A study of Mus musculus with 45 samples.

Results

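The genes described here are 55 mouse genes of DNA replication and of the step from G1 into S phase, the part of the cell cycle in which the genome is copied. They were taken from a fixed list of symbols, matched to Ensembl gene identifiers through the GENCODE M21 annotation. All 55 were among the 42929 genes listed in all 3 RNA-seq count tables of the study. In the first table, microglia were sorted as CD11b high, CD45 intermediate cells from C57BL/6 brain slices kept for 2 weeks in culture and exposed for 24 h to medium (9 samples), to the cytokine TNF at 50 ng/mL (11 samples) or to the growth factor GM-CSF at 20 ng/mL (9 samples). The slices were cut from newborn pups, and each sample pooled the microglia of several slices. In the second table, microglia of the same sort gate came from wild-type adult C57BL/6 mice of 10 to 15 weeks. They were taken 24 h after LPS at 1 mg/kg or after PBS (4 samples each). LPS is a component of the bacterial cell wall that activates innate immune cells. The third table held unsorted brain tissue from wild-type C57BL/6 mice of 10 to 15 weeks. The mice were either 24 h after LPS at 1 mg/kg or untreated (4 samples each), so the brain controls had no injection.

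DNA replication is prepared in G1, when the origin recognition complex, CDC6 and CDT1 load the ring-shaped MCM2-7 helicase onto DNA. CDC45 and the GINS complex then switch the helicase on, primase and the DNA polymerases copy the strands, and the sliding clamp PCNA, its loader RFC and the single-strand binding protein RPA hold the machinery in place. Many of these genes are targets of the E2F transcription factors, which cyclin E and its kinase partner help to release at the G1/S boundary. Microglia are the resident macrophages of the brain. They renew slowly in the adult and can divide under growth factors of the CSF family.

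Total counts per library were 5973364 to 9165485 in the slice microglia, 11391564 to 14216005 in the adult microglia and 8199863 to 10368578 in the brain tissue. The sorted cells carried the microglial markers: the summed level of 8 markers was 19218 to 26301 CPM (counts scaled to the TMM-adjusted library size) in medium and 56411 to 62828 CPM after PBS. It was lower with treatment, at 9664 to 12496 CPM with TNF, 13925 to 15487 CPM with GM-CSF and 38080.0 to 44199.5 CPM after LPS. Summed markers of neurons were at most 10.1 CPM in any sorted library. One library stood apart. LPS replicate 2 of the adult microglia had the highest level among the 4 LPS libraries for 52 of the 55 genes, and its summed level over them was 2285 CPM against 1523 to 1625 CPM in the other 3 LPS libraries. It also had the lowest fibronectin (Fn1), at 24.3 CPM against 85.98 to 186 CPM, and the lowest cyclin D2 (Ccnd2), at 1.46 CPM against 10.8 to 10.9 CPM. The counts of calls, the medians and several estimates are given with and without this library. Other estimates are given only with it. They include those of Uhrf1, Chaf1a, Mcm10, Tk1, E2f2 and Lig1, for which it had 2.05 to 2.85 times the median of the other LPS libraries. In samples of many cells, a higher level per cell and a larger number of cells with the transcript cannot be told apart.

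One sequence feature that the list did not use was frequent near the starts of these genes. RefSeq promoter windows (build GRCm38.p6, 250 bases before to 50 bases after the start) were found for 45 of the 55 genes. The E2F motifs TTTCGCGC or TTTGGCGC, on either strand, were in 13 of these 45 (28.9%), and in 0.929% of the 27025 genes with a window. The 13 were Cdt1, Clspn, E2f2, Lig1, Mcm3, Mcm5, Mcm6, Mcm7, Orc1, Pola1, Pole2, Rfc3 and Uhrf1. A second E2F-like core, TTCCCGCC, was in 17.8% of the member windows and 2.52% of all. The NF-Y box CCAAT was in 57.8% against 41.1%, and the motif TTTGAA of late cell cycle genes in 15.6% against 20.2%. A match to such letters is a description of the window and not a bound site. The 250 bases before the start of 4 genes that the results below turn on are shown as examples, chosen with the results known, in which an E2F motif lies upstream of the start. They are written 5′ to 3′ on the gene's own strand, with the E2F motifs in capitals.
Mcm6 (chr1:128359706-128359955, minus strand): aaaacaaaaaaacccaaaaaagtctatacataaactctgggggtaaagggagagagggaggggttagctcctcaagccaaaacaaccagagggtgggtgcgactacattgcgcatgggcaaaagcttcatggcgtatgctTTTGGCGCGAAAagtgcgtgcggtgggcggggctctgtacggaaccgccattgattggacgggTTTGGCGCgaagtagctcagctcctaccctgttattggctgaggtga
Mcm5 (chr8:75109259-75109508, plus strand): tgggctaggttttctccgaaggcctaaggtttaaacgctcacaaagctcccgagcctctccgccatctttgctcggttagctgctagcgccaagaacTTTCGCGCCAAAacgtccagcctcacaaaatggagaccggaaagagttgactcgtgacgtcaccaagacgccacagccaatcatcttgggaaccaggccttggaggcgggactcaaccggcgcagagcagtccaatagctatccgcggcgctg
Uhrf1 (chr17:56304063-56304312, plus strand): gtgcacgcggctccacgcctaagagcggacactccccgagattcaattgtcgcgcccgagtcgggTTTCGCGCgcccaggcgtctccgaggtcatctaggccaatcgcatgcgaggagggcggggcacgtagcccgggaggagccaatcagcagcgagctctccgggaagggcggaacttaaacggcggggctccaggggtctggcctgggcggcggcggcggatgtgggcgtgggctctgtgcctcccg
Orc1 (chr4:108579204-108579453, plus strand): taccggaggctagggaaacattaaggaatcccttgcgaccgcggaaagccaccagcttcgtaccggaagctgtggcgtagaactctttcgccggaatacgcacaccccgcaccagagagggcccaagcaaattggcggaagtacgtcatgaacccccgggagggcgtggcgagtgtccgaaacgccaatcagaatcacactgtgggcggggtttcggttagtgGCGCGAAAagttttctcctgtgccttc

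In Mcm6 and in Mcm5, the motif TTTGGCGC and the motif TTTCGCGC read from opposite strands and overlap, and the run in capitals covers both. Mcm6 holds a further TTTGGCGC closer to the start. Orc1 carries its motif on the opposite strand, so that it reads GCGCGAAA here.

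Levels between genes were compared on a scale of CPM per kb of exon. The length was that of all annotated exon bases of a gene, 6956 for Mcm2 and 3752 for Mcm3. It can exceed the length of the transcripts present, so the order and spread between genes also depend on the annotation. In medium, the highest means per kb were those of Rrm2, the regulated subunit of ribonucleotide reductase, at 48.5, of the clamp gene Pcna at 47.2, of Mcm3 at 46.6 and of Mcm6 at 39.02. The lowest was that of the checkpoint adaptor Clspn at 0.564. In PBS-treated adult microglia, Mcm3 was highest at 21.8, followed by Gins4 at 20.4 and Pcna at 16.2, while E2f8 was lowest at 0.0202. Across the 6 subunits of the MCM2-7 ring, which assemble in equal numbers, the means per kb in medium ran from 11.5 for Mcm2 to 46.6 for Mcm3. After PBS the same genes spanned 2.53 to 21.8, an 8.61-fold range, and after LPS 14.2 for Mcm7 to 41.4 for Mcm3, a 2.92-fold range. In brain tissue, Mcm6 and the initiation factor Mcm10 were listed at 0 in all 8 libraries, and no change is given for them there. The 3 tables were made with separate runs and normalized separately, so levels set across them are descriptions only.

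**Figure D1:**
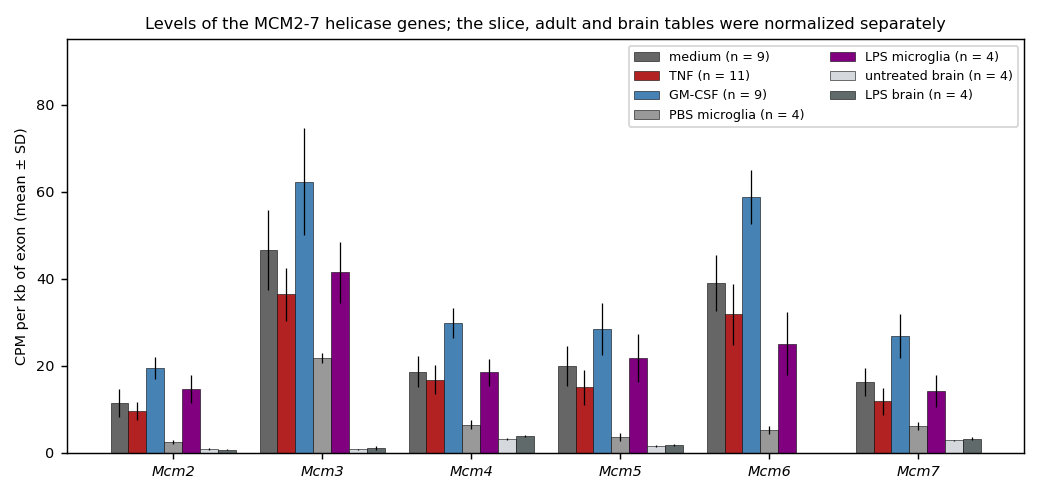
Levels of the 6 MCM2-7 genes as CPM per kb of exon, on a linear axis from 0, with bars for the mean and whiskers for the SD of each of the 7 groups. Mcm3 stood highest in each microglia group, GM-CSF bars exceeded medium bars for all 6 genes, and the LPS bars of adult microglia exceeded the PBS bars, while the brain bars stayed at or under 3.89 CPM per kb.

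The first comparison asks how slice microglia responded to TNF. A gene was called when its adjusted p over all genes tested was under 0.05 and its fold change exceeded 1.5. With TNF, 12 of the 55 genes were called lower and 0 were called higher than in medium by edgeR, against 11.7% of all 11313 genes tested called lower and 9.10% called higher. The genes that fell were those of nucleotide supply (Rrm1, Rrm2, Tk1), E2F and cyclin E (E2f2, E2f8, Ccne2), the late steps of strand processing (Lig1, Exo1), and Gins3, Mcm10, Pole and Clspn. The median log2 fold change of the 55 genes was -0.31, beside -0.031 for all genes tested, and 49 of the 55 estimates were below 0. At an unadjusted p under 0.05, 1 gene was higher (Timeless, 0.37 ± 0.18, adjusted p = 0.0959), and DESeq2 also called 12 lower and 0 higher. With the adjusted p alone and no fold threshold, 22 genes were lower, against 19.7% of all genes. The ranges of the TNF and medium libraries overlapped for all 55 genes, whereas the 2 groups did not overlap for 10.3% of all genes tested. Within the libraries whose titles carry the codes 1A or 1B, 8 genes were called lower, and within 2A or 2B, 7, codes whose meaning the labels do not give. The share of all genes called lower in these smaller fits is not given, so these 2 counts cannot be set against a background. Within the title codes 1A, 1B, 2A and 2B taken 1 at a time, the highest summed level of the 55 genes with TNF was 1761, 2218, 2369.7 and 1815 CPM, and the lowest in medium 2012, 2959.8, 2442 and 1923 CPM. In each code every TNF sum was thus below every medium sum, with 1 medium library in code 1B.

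None of the 10 origin licensing and MCM helicase genes was called, with log2 fold changes of -0.62 to -0.025. Mcm7, a subunit of the helicase ring, had 51.04 to 96.5 CPM (median 70.9) in medium and 35.3 to 70.1 CPM (median 43.8) with TNF, with 6 of the 11 TNF libraries below every medium library. Its log2 fold change was -0.45 ± 0.14 (adjusted p = 0.00728), which is under the fold threshold. Among the 6 helicase activation genes, Mcm10 fell by 0.75 on the log2 scale and Gins3, a subunit of the GINS complex, fell the most. Gins3 ranged over 8.03 to 18.4 CPM (median 11.6) in medium and over 3.10 to 9.10 CPM (median 7.93) with TNF. Of the 11 TNF libraries, 6 lay below every medium library and the other 5 at the lower end of the medium range, and the log2 fold change was -0.79 ± 0.20 (adjusted p = 0.00161). The other GINS genes and Cdc45 lay between -0.31 (Gins1) and 0.053 (Gins2) and were not called.

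Of the 8 polymerase and primase genes, Pole, the catalytic subunit of the leading strand polymerase, was the only one called. It spanned 5.06 to 13.6 CPM (median 9.92) in medium and 2.09 to 11.9 CPM (median 5.20) with TNF, where 5 of 11 libraries lay below every medium library and 1 reached the upper part of the medium range. The log2 fold change was -0.81 ± 0.26 (adjusted p = 0.0126), and within title codes 1A and 1B it was -0.57 (adjusted p = 0.276). The other 7, Pola1, Pola2, Prim1, Prim2, Pold1, Pold2 and Pole2, had log2 fold changes of -0.48 (Prim2) to -0.035 (Pola1). In the clamp, clamp loader and RPA group, 0 of 8 were called. Pcna had 98.01 to 133 CPM (median 107) in medium and 67.2 to 111 CPM (median 83.9) with TNF, and 8 of the 11 TNF libraries lay below every medium library. Its log2 fold change of -0.40 ± 0.087 (adjusted p = 3.74e-04) was under the fold threshold, as was that of Rpa1 (-0.51 ± 0.12, adjusted p = 5.24e-04), the large subunit of RPA. The loader genes Rfc2, Rfc3, Rfc4 and Rfc5 and the smaller RPA genes lay between -0.29 and 0.064. GENCODE also lists processed copies of Pcna and Tyms, with which reads may be shared.

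Strand joining and nucleotide supply showed the clearest decreases. Lig1, the ligase that seals Okazaki fragments, had 38.8 to 65.2 CPM (median 48.5) in medium and 25.7 to 44.001 CPM (median 33.4) with TNF. Of the 11 TNF libraries, 8 lay below the lowest medium library, and the log2 fold change was -0.61 ± 0.11 (adjusted p = 2.40e-05). The exonuclease Exo1 fell as well (-1.05 ± 0.33, adjusted p = 0.0102), while the nuclease Dna2 had -0.54 ± 0.16 (adjusted p = 0.00765), under the fold threshold, and Fen1 and Ung had -0.11 and -0.58. Rrm1, the large subunit of ribonucleotide reductase, which makes the DNA building blocks, had 136 to 261 CPM (median 167) in medium and 67.1 to 138 CPM (median 99.2) with TNF. In 9 of 11 TNF libraries it was below every medium library, with a log2 fold change of -0.75 ± 0.11 (adjusted p = 9.48e-07). Its partner Rrm2 fell from 134 ± 41.3 CPM (SD, n = 9) to 58.7 ± 26.8 CPM (SD, n = 11), and thymidine kinase (Tk1) from 39.97 ± 13.04 to 18.4 ± 11.3 CPM. Those differences were -1.19 ± 0.20 and -1.12 ± 0.25 on the log2 scale, with adjusted p of 1.70e-05 and 4.30e-04. Dut, which clears dUTP, was lower too but under the fold threshold, at -0.47 ± 0.16 (adjusted p = 0.0165). In contrast, thymidylate synthase (Tyms) had 0.16 ± 0.15 (adjusted p = 0.433).

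Among the fork protection and checkpoint genes, Clspn had 0 to 7.89 CPM (median 3.65) in medium and 0 to 3.17 CPM (median 1.75) with TNF. These are low levels, with 1 library of each group at 0, and no TNF library was below every medium library. The log2 fold change was -1.31 ± 0.49 (adjusted p = 0.0298), a call that was lost under 4 of the alternatives tried, with adjusted p between 0.0547 and 0.310. Timeless and Tipin, which together stabilize the fork, had 0.37 and -0.22, and the kinase Chek1 -0.16, none of them called. E2f8, a repressor among the E2F factors, had 4.28 to 16.9 CPM (median 8.03) in medium and 1.37 to 6.68 CPM (median 2.71) with TNF, with 8 of 11 TNF libraries below every medium library. Its log2 fold change was -1.32 ± 0.29 (adjusted p = 3.64e-04), with an adjusted p of 0.0651 within title codes 2A and 2B. The activator E2f2 fell by 0.78 and cyclin E2 (Ccne2) by 0.60, whereas cyclin E1 (Ccne1) and E2f1, the best known activator, had -0.080 and -0.0099. In the chromatin and histone supply group, Slbp, which binds histone mRNAs, had 66.6 to 115 CPM (median 82.3) in medium and 46.6 to 82.6 CPM (median 64.6) with TNF. The groups overlapped in part, 6 of 11 TNF libraries being below every medium library, and the log2 fold change was -0.36 ± 0.12 (adjusted p = 0.013), under the fold threshold. Uhrf1, which passes DNA methylation on to new strands, and the 2 large subunits of the histone chaperone CAF-1, Chaf1a and Chaf1b, lay between -0.33 and -0.050.

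**Figure D2:**
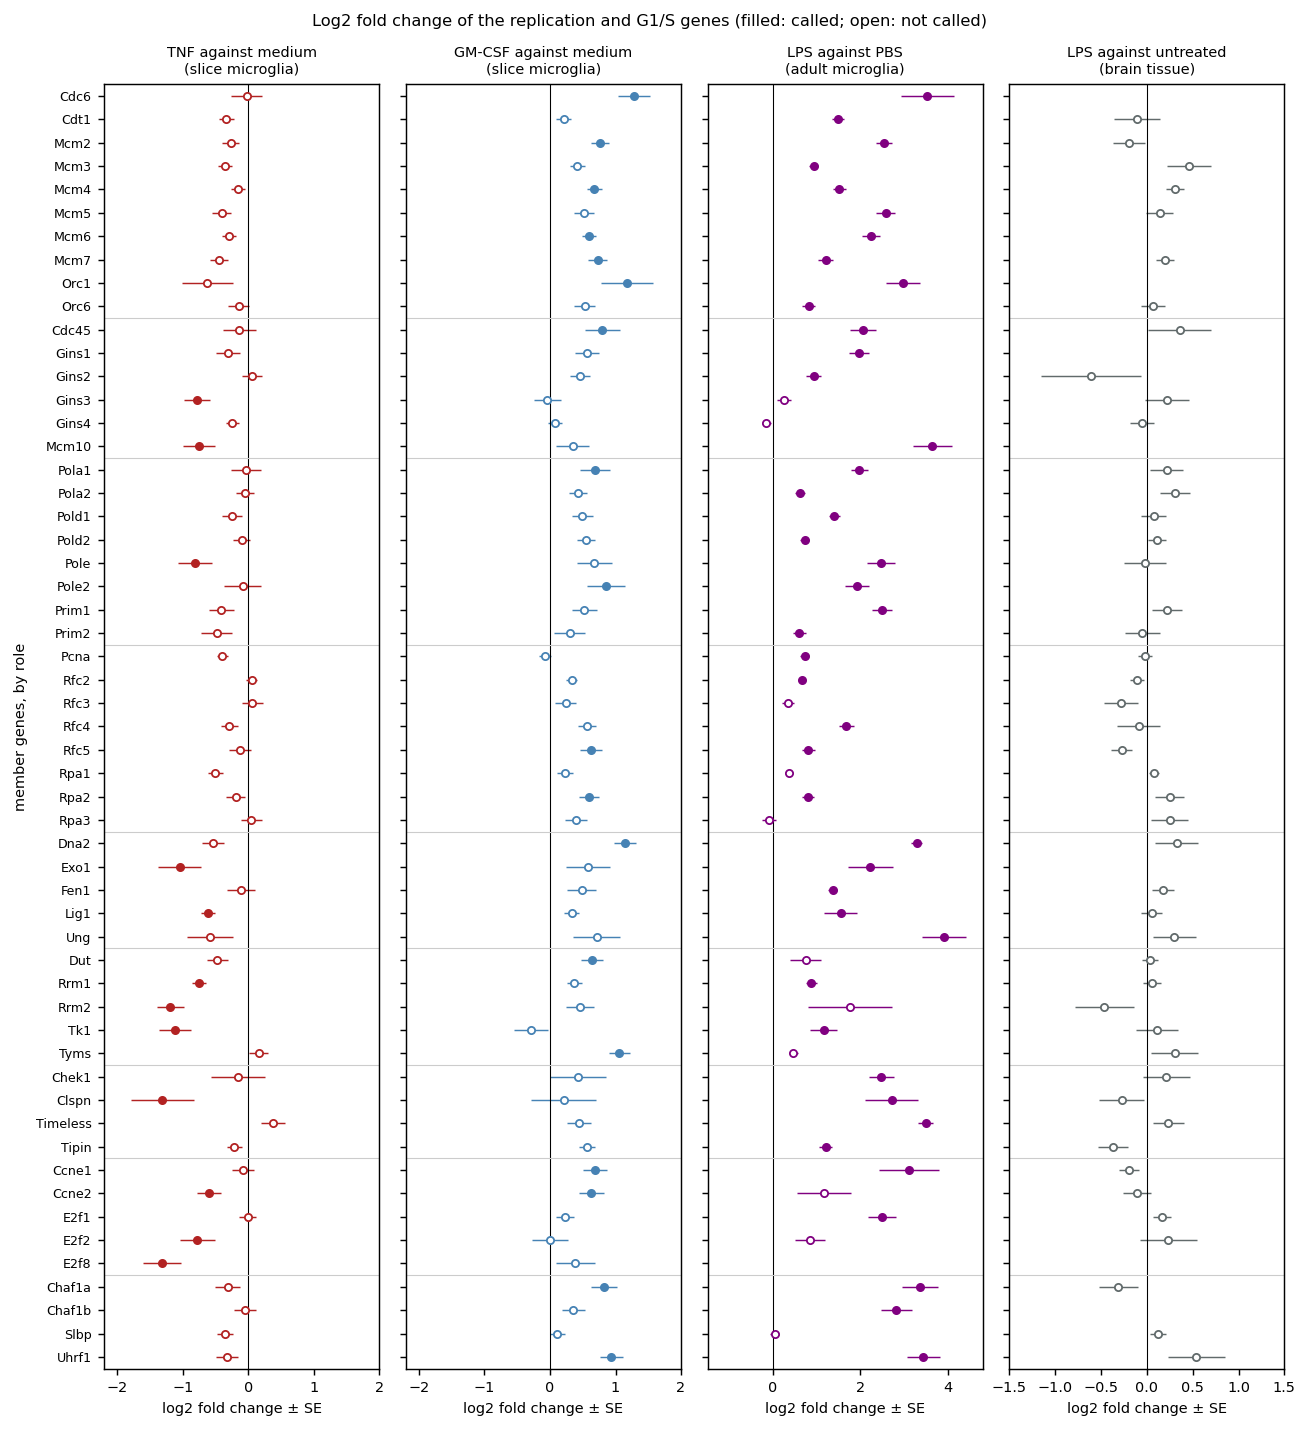
Log2 fold change (horizontal axis, whiskers for the SE) of each member, grouped by role from top to bottom (origin licensing and MCM helicase, helicase activation, polymerases and primase, clamp with loader and RPA, nucleases with ligase and uracil removal, nucleotide supply, fork protection, cyclin E and E2F, chromatin), in 4 comparisons with axes of different width. Filled points were called: 12 to the left with TNF, 18 to the right with GM-CSF, 43 to the right with LPS in adult microglia and 0 in brain tissue; a gene without a point was not tested.

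With GM-CSF, members of the set were higher. Compared with medium, 18 of the 55 genes were called higher and 0 lower by edgeR, against 4.84% of all genes tested called higher and 5.96% called lower. The median log2 fold change of the 55 was 0.51, beside -0.039 for all genes, and 52 estimates were above 0. At an unadjusted p under 0.05, 37 genes were higher and 0 lower, and DESeq2 called 19 higher and 0 lower. With the adjusted p alone, 32 genes were higher, against 12.1% of all genes. The count depended on the samples used. It was 7 within title codes 2A and 2B, 23 within 1A and 1B, and 28 when total counts replaced the TMM scaling. No share of all genes is given beside these counts.

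Origin licensing and the MCM ring held the most calls, 6 of 10: Cdc6, Orc1, Mcm2, Mcm4, Mcm6 and Mcm7. Mcm6 had 149.6 to 241 CPM (median 173) in medium and 228 to 312 CPM (median 274) with GM-CSF. All but 1 of the 9 GM-CSF libraries lay above every medium library, and the log2 fold change was 0.59 ± 0.11 (adjusted p = 5.77e-05). Mcm4 had 49.8 to 90.7 CPM (median 63.3) and 79.2 to 121 CPM (median 108) in the same order. Again 8 of 9 GM-CSF libraries exceeded the medium range, with a log2 fold change of 0.67 ± 0.12 (adjusted p = 2.44e-05). For Mcm2, the values were 47.1 to 122 CPM (median 79.2) in medium and 110.0 to 152 CPM (median 143) with GM-CSF, and 6 of 9 GM-CSF libraries were above all medium libraries. The difference was 0.76 ± 0.14 (adjusted p = 5.83e-05), with an adjusted p of 0.0546 within title codes 2A and 2B. Cdc6, the helicase loader, had the largest estimate of the 55, 1.28 ± 0.24 (adjusted p = 1.19e-04), from 11.99 ± 5.87 CPM (SD, n = 9) to 29.1 ± 3.20 CPM (SD, n = 9). Orc1, the largest subunit of the origin recognition complex, rose by 1.18 and Mcm7 by 0.73, while Mcm3, Mcm5, Orc6 and Cdt1, with 0.21 to 0.53, were not called.

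Tyms, which makes thymidine nucleotides, had the smallest p of the 55 with GM-CSF. It spanned 29.02 to 64.8 CPM (median 43.9) in medium and 73.6 to 118 CPM (median 90.5) with GM-CSF, so the 2 groups did not overlap. Cdc6 and Tyms were the only 2 of the 55 genes whose GM-CSF libraries all lay above the medium range, beside 2.93% of all genes tested. The log2 fold change of Tyms was 1.06 ± 0.15 (adjusted p = 1.93e-06). Dna2, which trims flaps on new strands and resects broken ends, had 12.3 to 35.3 CPM (median 20.8) in medium and 31.5 to 63.7 CPM (median 46.3) with GM-CSF. Here 8 of 9 GM-CSF libraries were above the medium range, and the difference was 1.145 ± 0.17 (adjusted p = 2.29e-06). The other calls were Cdc45 (0.80), Pola1 (0.69), Pole2 (0.86), Rfc5 (0.62), Rpa2 (0.60), Dut (0.64), Ccne1 (0.69), Ccne2 (0.63), Chaf1a (0.82) and Uhrf1 (0.94), each on the log2 scale. The fork protection group had 0 of 4 called, with 0.21 to 0.56. The 3 negative estimates were Tk1 (-0.28 ± 0.26), Pcna (-0.082 ± 0.091) and Gins3 (-0.043 ± 0.21), none of them called. The remaining genes, Gins1, Gins2, Gins4 and Mcm10, Pola2, Prim1, Prim2, Pold1, Pold2 and Pole, Rfc2, Rfc3, Rfc4, Rpa1 and Rpa3, Exo1, Fen1, Lig1 and Ung, Rrm1 and Rrm2, E2f1, E2f2 and E2f8, Chaf1b and Slbp, had log2 fold changes from 0.0013 (E2f2) to 0.71 (Ung) and were not called.

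**Figure D3:**
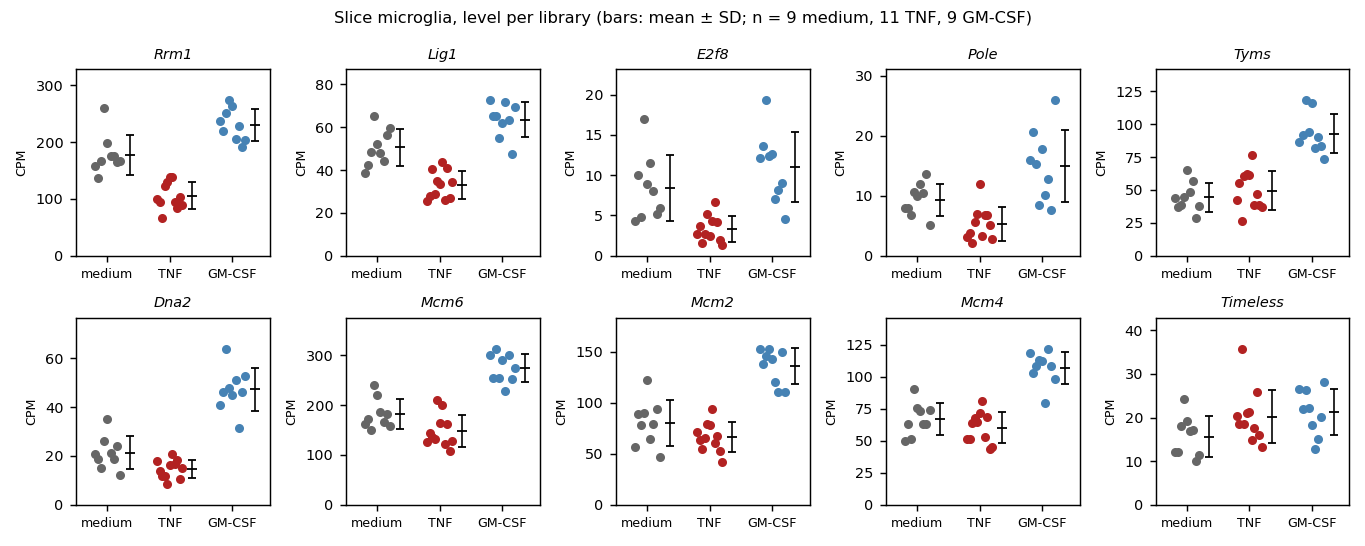
CPM per library (vertical axes, linear) of 10 of the genes in medium, TNF and GM-CSF, with black bars for the mean and SD. Rrm1, Lig1, E2f8 and Pole lie lower with TNF than with medium, Tyms, Dna2, Mcm6, Mcm2 and Mcm4 lie higher with GM-CSF, and Timeless overlaps across the 3 groups.

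TNF and GM-CSF samples were also compared directly, since the 2 comparisons with medium share the same 9 medium samples. Of the 55 genes, 42 were called lower with TNF than with GM-CSF and 0 higher, against 7.96% and 8.25% of all genes tested. At an unadjusted p under 0.05, 51 genes were lower and 0 higher, and DESeq2 also called 42 and 0. Within title codes 1A and 1B 39 were called lower, and within 2A and 2B 31, again without a share of all genes beside them. The median log2 difference was -0.83, beside -0.023 for all genes, and all 55 estimates were below 0. For 13 genes the TNF and GM-CSF ranges did not overlap, TNF being lower in each, beside 2.63% of all genes tested. The largest differences were those of Orc1 (-1.80 ± 0.38, adjusted p = 3.08e-04), E2f8 (-1.70 ± 0.29, adjusted p = 1.30e-05) and Dna2 (-1.69 ± 0.16, adjusted p = 1.36e-10). For Dna2 the ranges were 8.46 to 20.9 CPM (median 14.9) with TNF and 31.5 to 63.7 CPM (median 46.3) with GM-CSF, with no overlap. Ccne2 had 30.3 ± 8.15 CPM in medium (SD, n = 9), 19.99 ± 7.41 with TNF (SD, n = 11) and 46.9 ± 10.4 with GM-CSF (SD, n = 9). It was called in both comparisons with medium, at -0.60 ± 0.18 (adjusted p = 0.00823) and 0.63 ± 0.19 (adjusted p = 0.012). All 5 genes of nucleotide supply and all 5 of the nuclease, ligase and uracil removal group were called lower with TNF than with GM-CSF. The 13 genes not called in this comparison were Cdt1, Gins2, Gins4, Pola2, Pcna, Rfc2, Rfc3, Rpa3, Timeless, Chek1, E2f1, Slbp and Chaf1b.

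In adult microglia, most of the set was higher after LPS. Of the 54 genes tested, 43 were called higher and 0 lower than after PBS by edgeR, against 14.4% and 13% of all 12987 genes tested. E2f8 was not tested because of low counts. At an unadjusted p under 0.05, 47 genes were higher and 0 lower, and DESeq2 called 45 higher and 0 lower. The median log2 fold change was 1.502, beside 0.012 for all genes. Without LPS replicate 2, 40 of 54 were called higher, against 15.7% of all genes then tested, and the median was 1.32. The 3 calls lost were Pola2, Prim2 and Rfc2, whose log2 fold changes without that library were 0.55 ± 0.11, 0.51 ± 0.14 and 0.58 ± 0.066, under the fold threshold. The summed level of the 55 genes was 738 to 809.8 CPM after PBS and 1523 to 2285 CPM after LPS, a 2.27-fold rise in the mean and 2.05-fold without LPS replicate 2. The LPS and PBS ranges did not overlap for 45 of the 55 genes, LPS being higher in each, beside 24.1% of all genes tested.

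All 10 origin licensing and MCM helicase genes rose, by 0.81 to 3.53 on the log2 scale. Mcm2 had 21.97, 18.4, 13.9 and 16.004 CPM in PBS replicates 1 to 4 and 91.4, 134, 83.8 and 100.02 CPM in LPS replicates 1 to 4. Every LPS library was above every PBS library, with replicate 2 the highest. The log2 fold change was 2.54 ± 0.18 (adjusted p = 2.76e-06), and 2.38 ± 0.13 without LPS replicate 2. Cdc6, at 0.656 ± 0.392 CPM after PBS (SD, n = 4), had the largest estimate of the group, 3.53 ± 0.61 (2.79 ± 0.36 without LPS replicate 2). Orc1 rose by 2.98, Mcm5 by 2.58, Mcm6 by 2.24, Mcm4 by 1.52, Cdt1 by 1.48, Mcm7 by 1.21, Mcm3 by 0.93 and Orc6 by 0.81. Of the 6 helicase activation genes, 4 rose. Gins1 had 3.59, 3.66, 2.74 and 2.16 CPM after PBS and 11.5, 16.4, 10.4 and 9.35 CPM after LPS. The LPS libraries were all above the PBS libraries, and the difference was 1.964 ± 0.23 (adjusted p = 2.68e-05). Mcm10 (3.65), Cdc45 (2.05) and Gins2 (0.93) were called too, while Gins3 had 0.25 ± 0.17 (adjusted p = 0.225) and Gins4 -0.15 ± 0.10 (adjusted p = 0.226). Without replicate 2 the largest estimate of this group was 3.24.

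All 8 polymerase and primase genes rose. Pold1, the catalytic subunit of the lagging strand polymerase, had 30.5, 23.1, 21.5 and 24.7 CPM after PBS and 66.1, 76.5, 55.5 and 66.5 CPM after LPS. The groups were apart, and the log2 fold change was 1.41 ± 0.12 (adjusted p = 3.59e-06). The others ranged from Prim2 (0.60) and Pola2 (0.62) through Pold2 (0.72), Pole2 (1.92) and Pola1 (1.98) to Pole (2.46) and Prim1 (2.50). In the clamp, loader and RPA group, 5 of 8 rose. Rfc4, a subunit of the clamp loader, had 5.38, 5.53, 6.20 and 4.54 CPM after PBS and 16.04, 22.7, 15.3 and 15.4 CPM after LPS. LPS replicate 2 was highest and the other 3 LPS libraries lay close together, all above the PBS libraries. The difference was 1.68 ± 0.17 (adjusted p = 8.49e-06), and 1.53 ± 0.14 without replicate 2. Pcna (0.73), Rfc5 (0.80), Rpa2 (0.80) and Rfc2 (0.65) were called, and Rfc3 (0.33 ± 0.14), Rpa1 (0.37 ± 0.10) and Rpa3 (-0.10 ± 0.17) were not.

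All 5 nuclease, ligase and uracil removal genes rose. Dna2 had 5.46, 7.11, 5.88 and 4.97 CPM after PBS and 50.8, 54.5, 60.8 and 63.1 CPM after LPS. It was 9.77-fold higher after LPS, with the smallest p of the set, and LPS replicate 2 was not its highest library. The log2 fold change was 3.29 ± 0.12 (adjusted p = 9.78e-09), and 3.31 ± 0.13 without replicate 2. Ung, which removes uracil from DNA, had the largest estimate of all, 3.91 ± 0.51 (adjusted p = 9.09e-05), from 0.861, 0, 0.483 and 0.577 CPM after PBS, low levels of which 1 was 0. Fen1, the flap nuclease, had 1.36, Lig1 1.55 and Exo1 2.23, or 1.604 ± 0.37 without replicate 2. Of the 5 nucleotide supply genes, 2 were called. Rrm1 had 36.9, 32.5, 31.7 and 29.8 CPM after PBS and 55.9, 76.8, 50.3 and 57.6 CPM after LPS. The groups did not overlap, and the difference was 0.88 ± 0.13 (adjusted p = 1.26e-04). Tk1 rose by 1.16 and Tyms had 0.46 ± 0.11 (adjusted p = 0.0033), under the fold threshold. Without replicate 2, 2 of the 5 were still called, and the largest estimate of the group was 0.74.

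Rrm2 stayed within the range of the PBS libraries or below it in 3 of the 4 LPS libraries. It had 0.790, 1.65, 0.644 and 0.721 CPM after PBS and 1.53, 10.4, 0.537 and 0.810 CPM after LPS. Only LPS replicate 2 was outside the PBS range on the upper side, and the estimate of 1.76 ± 0.97 (adjusted p = 0.166) became 0.013 ± 0.47 (adjusted p = 0.985) without it. Ccne2 had 2.87, 3.02, 2.58 and 2.67 CPM after PBS and 2.04, 16.1, 4.07 and 2.94 CPM after LPS. LPS replicates 2 and 3 were above the PBS range, replicate 4 was within it and replicate 1 below it, and the log2 fold change was 1.16 ± 0.62 with all libraries against 0.12 ± 0.27 without replicate 2. E2f8, which was not tested, had 0.0718, 0, 0.0805 and 0.288 CPM after PBS and 0.219, 3.08, 0.230 and 0.0736 CPM after LPS. These 3 genes, which were chosen after their values were seen, had the largest ratios of LPS replicate 2 to the median of the other LPS libraries, 14.1 for E2f8, 12.8 for Rrm2 and 5.47 for Ccne2, beside a median ratio of 1.47 over the 55. Dut had 0.75 ± 0.35 (adjusted p = 0.0951), and 0.38 ± 0.31 without it.

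The fork protection and checkpoint genes all rose. Timeless had 3.88, 3.38, 1.93 and 2.88 CPM after PBS and 31.4, 38.95, 30.7 and 35.8 CPM after LPS. It was 11.2-fold higher, with no overlap of the groups and a log2 fold change of 3.49 ± 0.17 (adjusted p = 1.03e-07), or 3.42 ± 0.17 without replicate 2. Its partner Tipin rose by 1.21, Chek1 by 2.48 and Clspn by 2.71, or 1.98 ± 0.46 without replicate 2. Among cyclin E and E2F genes, E2f1 had 3.30, 3.59, 4.35 and 3.68 CPM after PBS and 17.4, 36.9, 13.3 and 16.5 CPM after LPS. Replicate 2 had more than any other LPS library, but all 4 were above the PBS range. The log2 fold change was 2.49 ± 0.32 (adjusted p = 1.56e-04), and 2.08 ± 0.16 without replicate 2. Ccne1 rose by 3.10, or 2.25 ± 0.46 without replicate 2, and E2f2 had 0.84 ± 0.34 (adjusted p = 0.055). In the chromatin group, Chaf1b had 1.36, 0.862, 1.53 and 1.23 CPM after PBS and 7.88, 15.4, 6.60 and 5.67 CPM after LPS. The groups did not overlap, and the difference was 2.83 ± 0.35 (adjusted p = 4.34e-05), or 2.43 ± 0.25 without replicate 2. Uhrf1 rose by 3.44 and Chaf1a by 3.37, while Slbp, already at 90.5 ± 2.99 CPM after PBS (SD, n = 4), had 0.035 ± 0.10 (adjusted p = 0.782). The largest estimate of the chromatin group without replicate 2 was 3.10. Most of the exon bases of Chaf1a, Gins2 and Fen1 lie under an annotated gene on the opposite strand, and whether strand was used in counting is not given in the sources used here, so their values are uncertain.

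**Figure D4:**
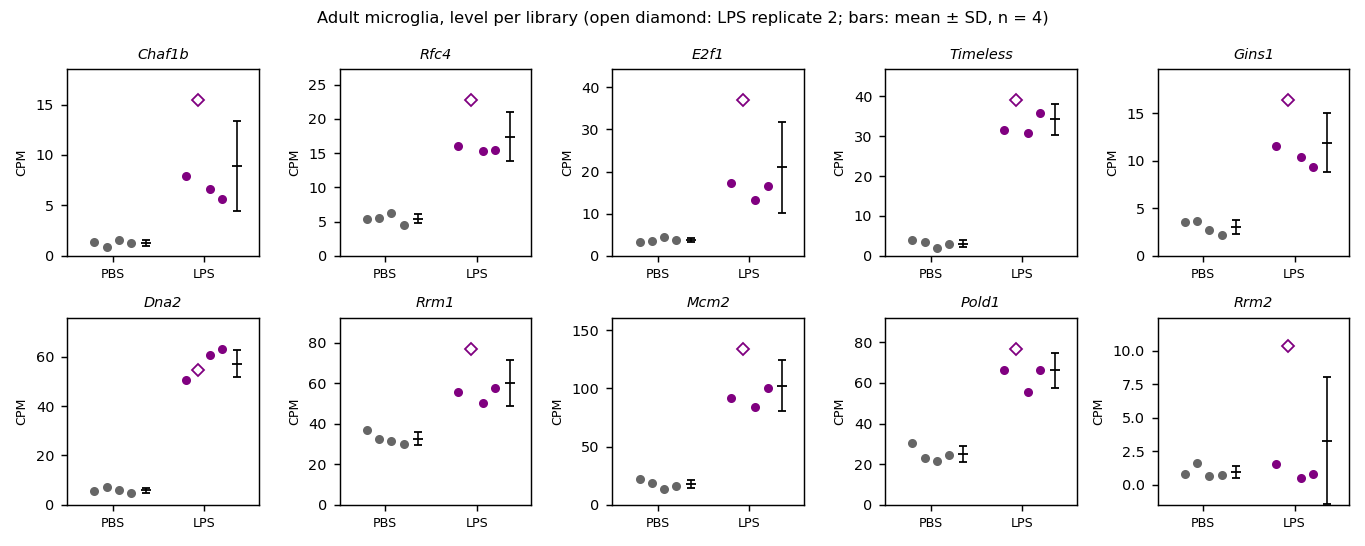
CPM per library (vertical axes, linear) of 9 called genes and of Rrm2 in adult microglia after PBS and after LPS, with bars for the mean and SD of 4 libraries. In the 9 called genes each LPS point lies above each PBS point, whereas in Rrm2 only the open diamond, LPS replicate 2 at 10.4 CPM, does.

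Of the 18 genes called higher with GM-CSF, 15 were also called higher with LPS in adult microglia (83.3% of the first list and 34.9% of the second). This is close to the 79.6% of all tested members called with LPS. The 5 genes called in none of the comparisons of TNF, GM-CSF or LPS with their controls were Gins4, Rfc3, Rpa1, Rpa3 and Slbp. Among the 13 genes with an E2F motif in the window, 11 were called higher with LPS, 6 higher with GM-CSF and 3 lower with TNF. Among the 32 with a window but no motif these were 24, of 31 tested, then 10 and 6. Of the genes printed above, Mcm6, Uhrf1 and Orc1 were called higher both with GM-CSF and with LPS, and Mcm5 with LPS alone.

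In whole brain tissue, 46 of the 55 genes were tested and 0 were called in either direction by edgeR, against 2.63% of all 15083 genes called higher and 0.550% called lower. Chaf1b, Gins1, Mcm10, Exo1, Orc1, Cdc6, Mcm6, Pole2 and E2f8 were not tested there because of low counts. At an unadjusted p under 0.05, 1 gene was higher and 2 were lower, and DESeq2 called 0 in either direction. The median log2 fold change was 0.093, beside 0.0028 for all genes. The summed level of the 55 genes was 421 to 438 CPM in untreated brains and 421 to 465 CPM after LPS. Mcm4 had the smallest p, with 9.95, 11.2, 12.3 and 11.7 CPM in untreated replicates 1 to 4 and 14.6, 14.1, 14.4 and 12.7 CPM after LPS. It was the only member whose groups did not overlap, beside 9.09% of all genes tested whose LPS libraries all lay above the untreated range, and the log2 fold change was 0.31 ± 0.10 (adjusted p = 0.0714). Rfc5 had 14.1, 13.9, 14.4 and 13.4 CPM untreated and 10.7, 10.1, 14.5 and 10.9 CPM after LPS. Of the LPS libraries 3 were below the untreated range and 1 above it (-0.27 ± 0.12, adjusted p = 0.159).

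Tipin had 9.85, 10.3, 8.59 and 11.6 CPM in untreated brains and 8.44, 6.60, 10.3 and 5.95 CPM after LPS, overlapping groups with a log2 fold change of -0.37 ± 0.16 (adjusted p = 0.176). For Mcm7 the values were 12.8, 12.7, 13.3 and 11.3 CPM and 13.6, 13.3, 14.1 and 16.5 CPM in the same order (0.20 ± 0.10, adjusted p = 0.253). Mcm3 had 2.71, 3.40, 3.31 and 3.03 CPM and 4.22, 5.42, 2.18 and 5.28 CPM (0.46 ± 0.24, adjusted p = 0.269). In both genes 3 LPS libraries were above every untreated library, and LPS replicate 3 had the lowest Mcm3 of all 8 brains. Without LPS replicate 3, Mcm3 was called higher at 0.67 (adjusted p = 0.0204). That library also had the lowest summed level of the 8 microglial markers, 239 CPM, beside 292 to 334 CPM in untreated brains, and its part in the result was not tested otherwise. Summed endothelial markers were 154 to 166 CPM untreated and 233 to 269 CPM after LPS, and their part in these values was not tested.

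The LPS effects in adult microglia and brain tissue were compared by an interaction term over the 16 libraries. The microglia effect was larger for 35 of 54 genes and smaller for 0, against 9.10% and 10.6% of all 16676 genes tested. At an unadjusted p under 0.05, 40 were larger and 0 smaller, and DESeq2 called 34 and 0. The count of 35 holds no gene listed at 0 in brain, and 52 genes remain without Mcm6 and Mcm10. Without LPS replicate 2 of the microglia, 33 were larger, against 9.87% of all genes. The difference was 3.25 ± 0.25 for Timeless (adjusted p = 1.81e-08), 2.96 ± 0.26 for Dna2 (adjusted p = 8.55e-08) and 2.72 ± 0.27 for Mcm2 (adjusted p = 5.96e-07). The controls were PBS-injected in one tissue and untreated in the other, and sorting and library kit also differ, so tissue, control and kit cannot be told apart in this term. The 8 microglial markers summed to 292 to 334 CPM in untreated brain and 56411 to 62828 CPM in sorted microglia after PBS. Microglial transcripts were thus a small part of the brain libraries, where a change in microglia alone would be little seen. The part of this in the term and in the 0 calls in brain was not tested.

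Genes of the same pathway outside the list were summarized in 3 further lists. Among 32 other replication genes, 1 was called higher and 4 lower with TNF, and 4 higher and 0 lower with GM-CSF. With LPS in adult microglia, 16 were called higher and 0 lower. Of all genes tested, 9.10% were called higher and 11.7% lower with TNF, and 4.84% and 5.96% with GM-CSF. With LPS in adult microglia these shares were 14.4% and 13%. The 4 lower with TNF were 12.5% of this list, close to the share of all genes. The lowest estimate with TNF was that of the histone chaperone Asf1b (-1.03), the highest with GM-CSF that of the alternative clamp loader gene Chtf18 (1.07), and the highest with LPS that of the replication kinase Cdc7 (2.66). Among 21 other G1/S regulators, TNF gave 4 higher and 3 lower, and GM-CSF 3 higher and 0 lower. LPS in adult microglia gave 8 higher and 1 lower of 20 tested. The 3 lower with TNF were 14.3% of this list, near the 11.7% of all genes. The cell cycle inhibitor Cdkn1a (p21) had 333 to 476 CPM (median 392) in medium, 814 to 1215 CPM (median 953) with TNF and 375 to 511 CPM (median 455) with GM-CSF. Every TNF library was above every library of the other groups, with a log2 fold change of 1.31 ± 0.076 over medium (adjusted p = 2.53e-16) and, with GM-CSF, of 0.17 ± 0.077 (adjusted p = 0.118). Cyclin D2 (Ccnd2) had the highest estimate of the list in each of the 3 comparisons, 1.67 with TNF, 1.76 with GM-CSF and 5.33 with LPS in adult microglia. In brain tissue, Myc was the 1 gene of these lists called (0.65 ± 0.17, adjusted p = 0.0265), beside 2.63% of all genes called higher there.

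The 20 mitosis and G2/M genes, which act after replication, followed another course. With TNF all 20 were called lower, against 11.7% of all genes tested. The median log2 fold change of the 20 was -1.32, beside -0.31 for the 55 replication and G1/S genes. With GM-CSF 0 of 20 were called (at an unadjusted p under 0.05 and by DESeq2, 1 and 0), with a median of 0.13 beside 0.51. Of all genes tested, 4.84% were called higher and 5.96% lower with GM-CSF. Mki67, the proliferation marker, had 15.98 to 74.2 CPM (median 32.4) in medium, 3.40 to 20.9 CPM (median 12.3) with TNF and 20.2 to 74.02 CPM (median 29.6) with GM-CSF. The TNF libraries reached only the lower end of the medium range, and the medium and GM-CSF ranges overlapped. With LPS in adult microglia, 7 of 17 tested were called higher and 1 lower, against 14.4% and 13% of all genes tested. Without LPS replicate 2 these counts were 6 and 2, beside 15.7% of all genes called higher. The summed level of the 20 genes was 20.3 to 32.6 CPM after PBS and 62.3 to 114 CPM after LPS. It was 634 to 1304 CPM in slice microglia in medium. In LPS replicates 1, 3 and 4 most of the rise was 1 gene, chosen here after its values were seen, the microtubule-depolymerizing kinesin Kif2c, with 3.59, 2.80, 1.13 and 1.30 CPM after PBS and 37.9, 31.5, 36.1 and 33.5 CPM after LPS (3.96 ± 0.27, adjusted p = 1.92e-06). Without Kif2c the sum of the other 19 was 21.8, 29.8, 19.2 and 23.4 CPM in PBS replicates 1 to 4 and 28.7, 82.9, 29.7 and 28.9 CPM in LPS replicates 1 to 4, so that only LPS replicate 2 was above the PBS range. Mki67 had 0.646, 2.87, 1.13 and 2.52 CPM after PBS and 1.17, 9.33, 1.15 and 0.515 CPM after LPS, with the same library alone above the PBS range.

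**Figure D5:**
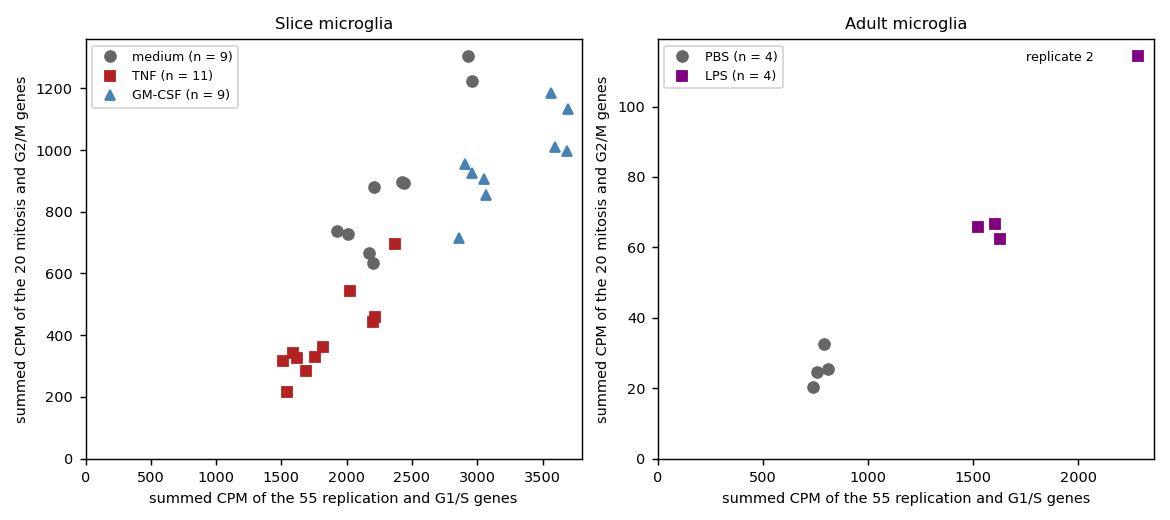
Summed CPM of the 20 mitosis and G2/M genes (vertical axis) against summed CPM of the 55 replication and G1/S genes (horizontal axis), 1 point per library, slice microglia on the left and adult microglia on the right, with different axis ranges. The TNF points lie at 1513 to 2369.7 CPM of replication genes and 216 to 696 CPM of mitosis genes, the GM-CSF points at 2864 to 3692 and 714 to 1185 CPM, and the adult LPS points at 1523 to 2285 and 62.3 to 114 CPM, of which Kif2c alone made 31.5 to 37.9 CPM.

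Markers of other cells were measured beside these results. In slice microglia the summed level of 8 monocyte markers was 915 to 2232 CPM in medium, 1720.4 to 4504 CPM with TNF and 1649 to 3785 CPM with GM-CSF. Most of it was Fn1, which microglia can also express, while the defining markers Ccr2 and Ly6c2 reached at most 4.43 and 2.76 CPM. Only 3 of these markers were tested in the slices. TNF raised 2 of them past both thresholds and lowered 0, the estimates spanning 0.19 to 4.27 on the log2 scale. GM-CSF gave 1 call in each direction, the estimates spanning -1.05 to 1.00. Summed border macrophage markers in slice microglia were 221 to 630 CPM in medium, 181 to 868 CPM with TNF and 175 to 434 CPM with GM-CSF. Of the 5 tested, 2 were called lower and 0 higher with TNF, and 1 lower and 0 higher with GM-CSF. In adult microglia the summed neutrophil markers were 628 to 726 CPM after PBS and 448 to 677 CPM after LPS, of which the receptor gene Csf3r made 573 to 685 and 444 to 667 CPM, and the granule gene Ngp went from 12.3 to 24.6 CPM down to 0 to 2.41 CPM. The summed monocyte markers were 14.7 to 22.2 CPM after PBS and 44.3 to 254 CPM after LPS. Fn1 made most of this after LPS (24.3 to 186 CPM) but little after PBS (0.144 to 0.719 CPM). Of the 6 monocyte markers tested, 3 were called higher and 2 lower. Ms4a4c went from 1.23 to 4.96 CPM up to 12.2 to 41.1 CPM, and F13a1 from 0.144 to 1.13 CPM up to 2.91 to 22.2 CPM. Ccr2 went from 6.47 ± 0.305 down to 3.68 ± 0.664 CPM (SD, n = 4 each). Summed astrocyte markers were 254 to 279.6 CPM after PBS and 145 to 181 CPM after LPS, of which the glutamate transporter gene Slc1a3 made 253 to 278 and 143 to 179.7 CPM, while Gfap, Aqp4, Aldh1l1 and Gja1 reached at most 1.90 CPM. Summed border macrophage markers were 9.02 to 15.6 CPM after PBS and 22.5 to 27.8 CPM after LPS, and both of those tested, Mrc1 (0.64 ± 0.20, adjusted p = 0.0184) and Cbr2 (3.88 ± 0.44, adjusted p = 2.67e-05), were called higher, while Lyve1 reached at most 0.147 CPM. Summed endothelial markers were 28.9 to 36.3 CPM after PBS and 10.2 to 13.7 CPM after LPS, almost all of it Pecam1, called lower at -1.59 ± 0.12 (adjusted p = 1.42e-06), and Cldn5 was at 0 in all 8 libraries. Summed lymphocyte markers were 33.6 to 39.5 CPM after PBS and 19.9 to 36.4 CPM after LPS. Of this, Cd79b made 32.8 to 39.3 and 19.6 to 36.04 CPM. The 1 lymphocyte marker tested had a log2 fold change of -0.49, with an adjusted p under 0.05 but under the fold threshold. Without LPS replicate 2 it was called lower at -0.71. The T cell marker Cd3e was at 0 in all 8 adult libraries, and Cd3d reached at most 0.431 CPM. The part of these markers in the results was not tested.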

How the data were processed

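RNA-seq gene counts from 29 slice microglia, 8 adult microglia and 8 brain tissue samples were used. For slice microglia, the authors deposited raw counts per gene, and the submitters' processing notes name STAR 2.7.0a, featureCounts, Subread 1.6.4 and mm10. For adult microglia and brain tissue, the authors deposited expected counts per gene on mm10, which were rounded here to whole numbers. For these 2 tables, aligner, counter and strand setting: not given in the sources used here. In the brain table, 92 rows that name no gene held 0 counts and were left out.

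Genes were filtered with filterByExpr (minimum count 10, minimum total 15), scaled by TMM and tested with edgeR 4.0.16 (R 4.3.3) by the quasi-likelihood test with Benjamini-Hochberg adjustment over all genes tested in each table. The slice fit held all 29 samples, the adult and brain fits 8 each and the interaction all 16. DESeq2 1.42.0 was an alternative. Calls required an adjusted p under 0.05 together with a fold over 1.5. Values after ± are standard errors for log2 fold changes. Levels are CPM, and CPM per kb of GENCODE M21 exon where genes are compared. The scripts were tested on simulated data.

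Groups came from the labels. The study describes the in vivo samples as coming from independent mice, and the slice data as pooled over several independent experiments. Which slice sample belongs to which experiment is not given, and the main slice fit held no term for it. For the slices, p-values measure only the spread between these samples. The members and lists were chosen with earlier results of these data known. Genes given with all values were those with the smallest p in each role group (TNF and LPS in adult microglia), and the 5 with the smallest p with GM-CSF and in brain. The other settings tried were other size factors, other filters, no fold threshold, the replicate number as a block, the title codes, fits of 2 groups only, and each in vivo sample left out in turn.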

Additional observations from a re-analysis of the deposited data

Results flagged for a closer look

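Samples far from the others of their group were looked for in 142 combinations of group and value, and 10 were found, where chance gives about 5 percent. The TNF group, with 11 samples, was too large for the rule used and was not searched. Of these, 4 were LPS replicate 2 of the adult microglia. Its summed level of the 55 genes was 2285 CPM against 1523 to 1625 CPM in the other 3 LPS libraries. Its E2f8 was 3.082 CPM against 0.0736 to 0.2302, its Mcm7 87.33 CPM against 52.65 to 57.78, and its Rfc4 22.69 CPM against 15.27 to 16.04. In medium, E2f1 was 32.02 CPM in replicate 9 against 51.01 to 69.21 in the other libraries. Rfc4 was 37.07 CPM in medium replicate 5 against 15.53 to 26.16, and Rrm1 was 260.7 CPM in medium replicate 4 against 136.5 to 198.9. In untreated brain, replicate 2 had Pcna at 32.27 CPM against 38.34 to 38.7 and Slbp at 23.42 CPM against 22.31 to 22.46. The summed level of the 55 genes was 438 CPM in untreated brain replicate 1 against 420.5 to 421.5 in the others.

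The LPS effect differed between adult microglia and brain tissue by the interaction term of edgeR, with 35 members having a larger effect in microglia. The log2 difference was 3.246 for Timeless (adjusted p = 1.81e-08), 2.957 for Dna2 (adjusted p = 8.55e-08), 2.724 for Mcm2 (adjusted p = 5.96e-07), 1.324 for Pold1 (adjusted p = 2.53e-05) and 1.758 for Rfc4 (adjusted p = 7.51e-05). It was 2.319 for E2f1 (adjusted p = 8.09e-05), 0.8087 for Rrm1 (adjusted p = 0.0012), 3.055 for Chaf1b (adjusted p = 0.00153) and 1.495 for Gins1 (adjusted p = 0.0192). Chaf1b and Gins1 had too few counts to be tested in brain tissue alone.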

How the results depend on the processing

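No result reversed under the alternatives run, and 243 of 252 alternative values of the counts and medians stayed within the limits set for a change. With TNF, 7 members were called lower in title codes 2A and 2B only, and 22 by the adjusted p alone. With GM-CSF, 7 were called higher in title codes 2A and 2B only, 28 with total counts in place of TMM and 32 by the adjusted p alone. Total counts moved the median of all genes to -0.19 in TNF against GM-CSF. The causes were not tested. The title code subsets hold fewer samples than the full fit, and the part of this in the counts was not tested either. No share of all genes is given beside the counts of the subsets or of total counts. In brain tissue, leaving out 1 sample gave 0 to 1 members called higher, the 1 being Mcm3 without LPS replicate 3. The median of the interaction was 1.29 with a minimum count of 30, and 1.18 to 1.58 with 1 sample left out, lowest without LPS replicate 2 of the microglia. Among the genes given with all values, E2f8, Clspn, Pole, Mcm6 and Mcm2 lost their call under 1 or more alternatives.

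Replicate numbers did not pair the samples: correlations of same-numbered samples were 0.0168 to 0.111 (GM-CSF with medium), 0.0412 to 0.184 (TNF with medium), -0.0415 to 0.128 (GM-CSF with TNF), -0.033 to 0.0206 (adult) and -0.0779 to 0.0428 (brain). With the replicate block, 11 members were called lower with TNF, 18 higher with GM-CSF, 39 lower with TNF than GM-CSF, 45 higher with LPS in adult microglia and 0 in brain, and 36 had a larger effect in microglia than brain. With the block, Clspn had an adjusted p of 0.112 with TNF. Between slice groups, mean correlations were 0.0704 to 0.0877 for samples of the same title code and -0.0284 to -0.0231 for other codes. The main slice fit held no term for the code.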
